A study of Homo sapiens with 6 samples.

Results

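Of 44 genes listed as the hypoxia response of human cells, 41 had a row in the deposited table of 12703 genes and were measured here. EGLN2, EGLN3 and SLC2A3 had no row and were not analysed here. The list was chosen by gene symbol, with earlier results of these data known. Its members cover the oxygen-sensing machinery and the genes that it is known to control. The samples were PC3 cells, an established human line from a bone metastasis of prostate cancer. A total of 3 lines carried a lentivirus with the GCNT1 reading frame, which encodes the enzyme that builds core 2 O-glycans, and 3 control lines carried the negative-control Lenti-ORF particles. Both groups were thus transduced and stably selected, and neither the labels nor the methods name a low-oxygen treatment. Labels call the lines biological replicates. Whether they came from separate transductions is not given, so that p values measure the spread between these lines.

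Cells read oxygen through prolyl hydroxylases of the EGLN family, which mark the alpha subunits of the hypoxia-inducible factor (HIF) for destruction by the VHL ubiquitin ligase when oxygen is present. When oxygen falls, or when the pathway is switched on by other signals, HIF alpha pairs with ARNT and binds short DNA elements with the core ACGTG or GCGTG. The targets raise glucose uptake and glycolysis, restrain mitochondria, export acid and lactate, remodel collagen and signal to blood vessels. HIF alpha is controlled largely as a protein, which RNA counts do not measure.

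Total counts were 11392213 to 13825704 per library. GCNT1 itself had 9, 13 and 8 reads in the controls against 13, 16 and 35 in GCNT1 overexpressing cells (log2 fold change 0.98, adjusted p = 0.0362 in edgeR's quasi-likelihood test). The call was lost under DESeq2 (adjusted p = 0.0821), and without GCNT1 overexpressing library 3 the log2 fold change was 0.49 (adjusted p = 0.269 in edgeR's test). For its overexpressing PC3 cells the paper also shows GCNT1 by immunocytochemistry, ELISA and real-time PCR, which were not used here. The line markers KRT8, KRT18, EPCAM, VIM and CD44 were counted in all 6 libraries, while KLK3 and KLK2 had no row.

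The hypoxia response genes were mostly lower in GCNT1 overexpressing cells, and none was called higher. A gene was called when its adjusted p was under 0.05 and its absolute log2 fold change was at least 0.58, with edgeR's quasi-likelihood test and p values adjusted over all 12703 genes after Benjamini and Hochberg. By this rule 11 of the 41 members (26.8%) were lower, against 11.1% of all genes, and 0 were higher, against 8.28% of all genes. The 11 genes were CA9, ANGPTL4, PDK3, SLC16A3, NDRG1, BNIP3, BHLHE40, DDIT4, PDK1, BNIP3L and PPFIA4. With the adjusted p alone, 26 members (63.4%) were lower and 2 were higher, while 29.3% of all genes were lower and 28.3% were higher (57.6% in either direction). DESeq2 and limma-voom also called 0 members higher with both thresholds, and 2 members were higher at an unadjusted p under 0.05 in edgeR's test, PFKFB3 and VLDLR. The median log2 fold change was -0.37 over the members and 0.00095 over all genes tested. In bulk RNA a lower level in every cell and fewer cells that express the gene cannot be told apart.

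All 3 overexpressing libraries lay below all 3 control libraries in 30 of 41 members (73.2%), which was the case for 31.6% of all genes. The reverse was seen in 1 member, PFKFB3, and in 30.9% of all genes. With 3 libraries a group the smallest p of an exact permutation test is 0.1, so no single member can pass such a test. The TMM scaling factors were 0.975 to 0.987 in the control libraries and 1.02 in the overexpressing libraries. When library size was used without these factors, 9 members were called lower and 0 were called higher.

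**Figure D1:**
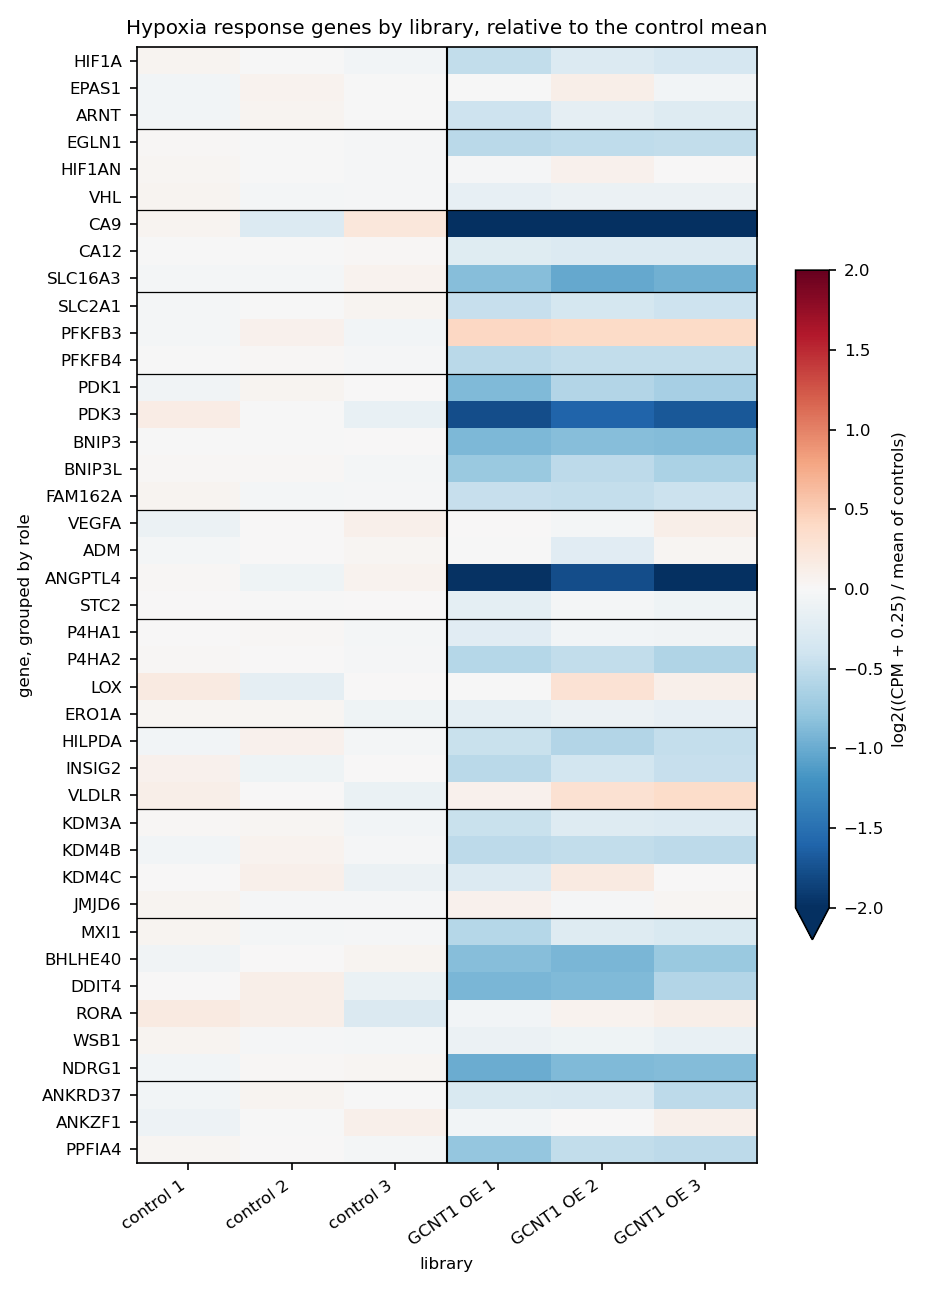
Heatmap of 41 hypoxia response genes (rows, grouped by role with lines between groups) in 6 libraries (columns); colour gives log2 of CPM + 0.25 relative to the mean of the control libraries, and the darkest blue stands for values of -2 or less. Blue runs through the 3 GCNT1 OE columns for most genes, is darkest for CA9, ANGPTL4 and PDK3, and PFKFB3 is the member whose 3 GCNT1 OE libraries all lie above the 3 controls.

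The subunits of HIF differed in their RNA. HIF1A, the oxygen-labile alpha subunit that most cells express, lies on chromosome 14 from 61695513 to 61748258 of GRCh38. It had 12888, 12200 and 11118 reads in the controls against 8099, 11112 and 10948 with GCNT1 overexpression. After scaling, each overexpressing library was below each control, at 981 ± 41.9 CPM (SD, n = 3) in controls and 762 ± 56.0 CPM (SD, n = 3) with overexpression. HIF1A fell by 0.37 on the log2 scale (edgeR adjusted p = 8.45e-05, SE 0.05), which is 22.4% lower and under the fold change threshold. Antisense genes overlap HIF1A.

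ARNT, the constitutive partner of the alpha subunits, had 923, 979 and 895 reads in the controls against 658, 922 and 895 with GCNT1 overexpression. On the log2 scale the change was -0.28 (edgeR adjusted p = 0.00292, SE 0.07), and the scaled groups did not overlap. EPAS1, which encodes the second alpha subunit HIF-2 alpha, had 244, 263 and 236 reads in the controls against 231, 302 and 273 with GCNT1 overexpression. Its groups overlapped at 20.2 ± 0.883 and 20.4 ± 1.38 CPM (SD, n = 3 each), with a log2 fold change of 0.02 (edgeR adjusted p = 0.852, SE 0.08). The 50 analysed genes around EPAS1 stood at a median log2 fold change of -0.46, the lowest among the members. The ratio of EPAS1 to HIF1A counts within a library, which needs no scaling, was 0.0206 ± 0.00143 (controls) and 0.0269 ± 0.00181 (GCNT1, SD, n = 3 each), and the groups did not overlap.

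Among the oxygen sensors, EGLN1 was lower and the others changed by less. EGLN1, the main prolyl hydroxylase of HIF and itself a HIF target, had 1215, 1175 and 1095 reads in the controls against 751, 908 and 946 with GCNT1 overexpression. Its level was 94.5 ± 1.97 CPM in controls and 66.0 ± 1.08 CPM with overexpression (SD, n = 3 each), so that the groups were far apart relative to their spread. On the log2 scale the change was -0.52 (edgeR adjusted p = 2.55e-06, SE 0.05), just short of the fold change threshold. VHL, which recognizes hydroxylated HIF alpha, had 1180, 1093 and 1043 reads in the controls against 931, 1141 and 1174 with GCNT1 overexpression (edgeR adjusted p = 0.0551, log2 fold change -0.13, SE 0.05). HIF1AN, the asparaginyl hydroxylase that limits HIF activity, had a log2 fold change of 0.03 (edgeR adjusted p = 0.688) and overlapping groups.

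**Figure D2:**
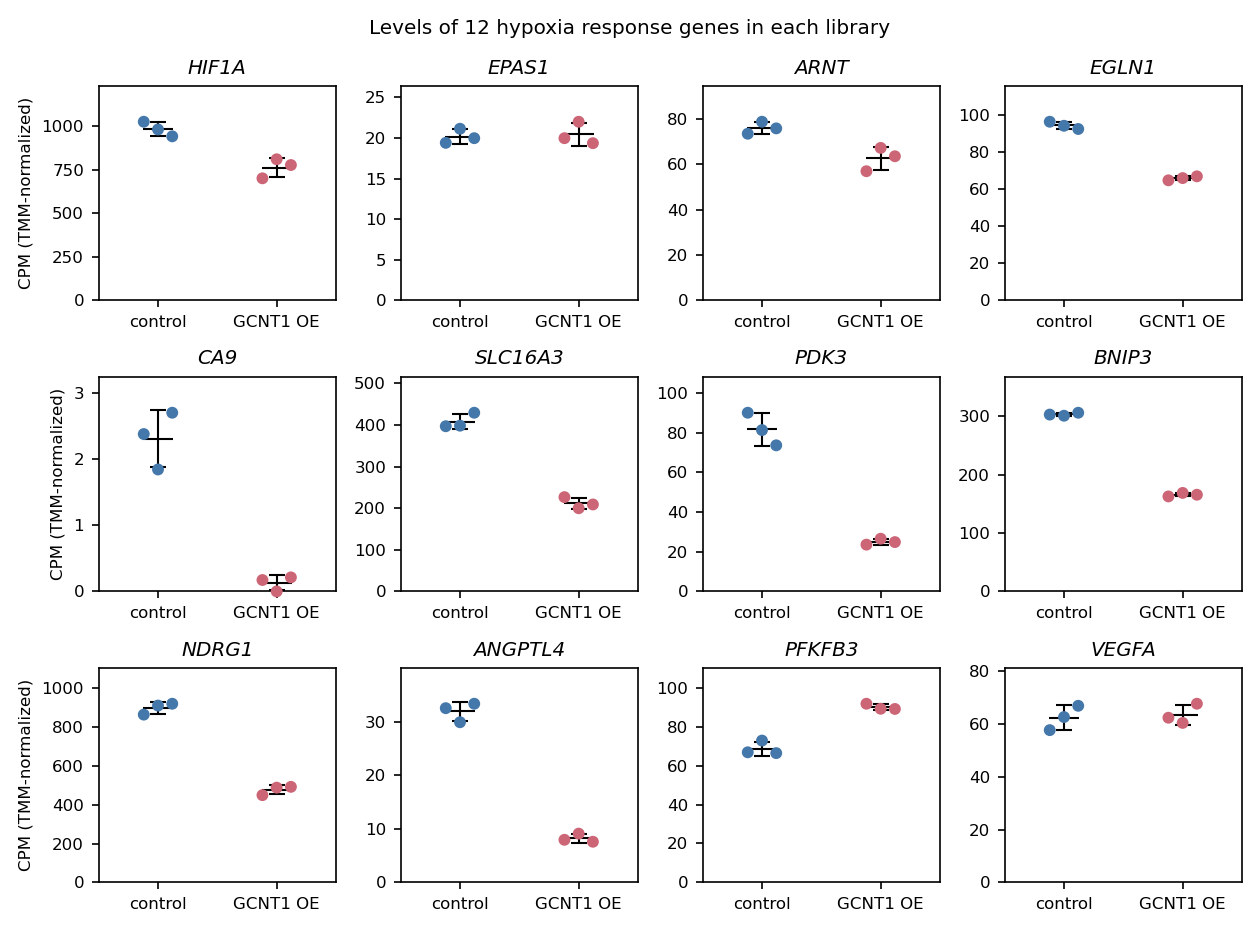
CPM after TMM scaling (vertical axes, starting at 0) of 12 hypoxia response genes in 3 control libraries (blue) and 3 GCNT1 OE libraries (red); points are libraries, horizontal marks are means and bars are 1 SD. CA9, SLC16A3, PDK3, BNIP3, NDRG1 and ANGPTL4 are lower without overlap, PFKFB3 is higher without overlap, and EPAS1 and VEGFA overlap.

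Genes for acid and lactate export were lower, with the largest fall of the list in CA9. CA9 encodes carbonic anhydrase IX, a surface enzyme for pH control and a widely used marker of HIF activity, and lies on chromosome 9 from 35673928 to 35681159. It had 30, 23 and 32 reads in the controls against 2, 0 and 3 with GCNT1 overexpression. The control level of CA9 was low, at 2.31 ± 0.434 CPM (SD, n = 3), and every overexpressing library was at or under the floor of 3 counts. Every gene of the table had at least 1.01 CPM in its top 3 libraries, so CA9 has its row through the controls alone. A gene this low in both groups would have no row. The summed counts, 85 against 5, gave an 18.2-fold lower level after scaling, with a 95% exact interval of 7.49 to 57.4 that covers counting error only. The fitted log2 fold change of CA9 (-4.08, adjusted p = 6.86e-06 in edgeR's test) depends on the small count that edgeR adds. The ARHGEF39 gene overlaps CA9 on the opposite strand, and the strand setting of the counting is not given in the sources used here.

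The 250 bases before the RefSeq start of CA9 (GRCh38.p14, chr9:35673678-35673927, plus strand) are shown because they hold the HIF core element close to the start. Capitals mark ACGTG or GCGTG on either strand, here 1 ACGTG on the minus strand that begins 18 bases before the start.
CA9: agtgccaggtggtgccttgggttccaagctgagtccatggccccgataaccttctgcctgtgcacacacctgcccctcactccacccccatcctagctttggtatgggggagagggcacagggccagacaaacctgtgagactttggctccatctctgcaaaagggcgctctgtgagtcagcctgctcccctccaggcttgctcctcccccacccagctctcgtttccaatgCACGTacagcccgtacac

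SLC16A3 encodes the lactate exporter of glycolytic cells and lies on chromosome 17 from 82217934 to 82240086. It had 4993, 4957 and 5074 reads in the controls against 2621, 2744 and 2947 with GCNT1 overexpression. The level of SLC16A3 was 408 ± 18.4 CPM in controls and 212 ± 13.6 CPM with overexpression (SD, n = 3 each), 48.1% lower (edgeR adjusted p = 1.19e-08, log2 fold change -0.95, SE 0.05). CSNK1D overlaps SLC16A3 on the opposite strand, and the 50 nearest genes that were analysed stood at a median log2 fold change of -0.33. CA12, a related membrane carbonic anhydrase, was 16.7% lower (edgeR adjusted p = 0.000963, log2 fold change -0.26) with groups that did not overlap.

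All 5 members grouped by their link to mitochondria were lower by the adjusted p, against 29.3% of all genes. Of these, 4 were called, against 11.1% of all genes. The calls of PDK1 and BNIP3L were lost in edgeR's glmTreat, which tests for changes beyond 0.58 on the log2 scale, and those of PDK3 and BNIP3 were not. PDK3 and PDK1 encode kinases that switch off pyruvate dehydrogenase and so keep pyruvate out of the citric acid cycle. PDK3, on chromosome X from 24465286 to 24550466, had 1134, 1013 and 871 reads in the controls against 273, 365 and 351 with GCNT1 overexpression. This was 69.3% lower (edgeR adjusted p = 1.95e-09, log2 fold change -1.71, SE 0.08). PDK1, on chromosome 2 from 172555373 to 172724312, had 608, 663 and 609 reads in the controls against 319, 467 and 453 with GCNT1 overexpression, 38.6% lower (edgeR adjusted p = 6.96e-06, log2 fold change -0.70, SE 0.08). Within libraries the ratio of PDK3 to PDK1 counts was 1.61 ± 0.228 (controls) and 0.804 ± 0.0449 (GCNT1, SD, n = 3 each), and the groups did not overlap.

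BNIP3 and its relative BNIP3L encode receptors on the mitochondrial outer membrane that recruit the autophagy machinery. BNIP3, on chromosome 10 from 131967684 to 131981923, had 3816, 3751 and 3622 reads in the controls against 1885, 2320 and 2339 with GCNT1 overexpression. Its scaled level had little spread, at 304 ± 2.58 CPM in controls and 166 ± 3.01 CPM with overexpression (SD, n = 3 each), which is a log2 fold change of -0.87 (edgeR adjusted p = 2.97e-09, SE 0.04). GENCODE lists 44 pseudogenes named after BNIP3, so that part of its count is uncertain.

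The 250 bases before the start of BNIP3 (GRCh38.p14, chr10:131981924-131982173, minus strand) are shown for their cluster of HIF core letters. It held 2 matches to ACGTG, which are the 2 strands of a single CACGTG, and 4 matches to GCGTG, all marked in capitals.
BNIP3: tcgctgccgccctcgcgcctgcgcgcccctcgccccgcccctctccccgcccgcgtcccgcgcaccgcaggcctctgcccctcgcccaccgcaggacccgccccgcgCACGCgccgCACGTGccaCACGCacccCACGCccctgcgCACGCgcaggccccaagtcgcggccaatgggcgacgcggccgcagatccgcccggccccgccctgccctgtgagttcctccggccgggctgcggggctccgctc

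BNIP3L, on chromosome 8 from 26383054 to 26413127, had 2678, 2637 and 2400 reads in the controls against 1451, 1994 and 1898 with GCNT1 overexpression (edgeR adjusted p = 9.24e-07, log2 fold change -0.63, SE 0.06). With library size alone its log2 fold change was -0.57, just under the fold change threshold. FAM162A, a mitochondrial protein linked to cell death in hypoxia, was 27.4% lower (edgeR adjusted p = 7.91e-06, log2 fold change -0.46).

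Of the members that control glucose entry and the pace of glycolysis, 2 were lower and 1 was higher by the adjusted p alone (29.3% and 28.3% of all genes), and 0 were called with both thresholds. SLC2A1 encodes the basal glucose transporter of most cells, and it had 1642, 1669 and 1643 reads in the controls against 1124, 1449 and 1425 with GCNT1 overexpression. It was 24.7% lower (edgeR adjusted p = 2.46e-05, log2 fold change -0.41, SE 0.05). PFKFB3 and PFKFB4 encode related enzymes that set the level of fructose-2,6-bisphosphate, an activator of glycolysis, and they moved in opposite directions, for which their counts were chosen to be shown after the values were seen. PFKFB3 had 841, 907 and 785 reads in the controls against 1062, 1225 and 1257 with GCNT1 overexpression, 31.0% higher (edgeR adjusted p = 6.36e-05, log2 fold change 0.39, SE 0.06). PFKFB4 had 1249, 1273 and 1170 reads in the controls against 795, 979 and 999 with GCNT1 overexpression, 29.8% lower (edgeR adjusted p = 2.61e-06, log2 fold change -0.51, SE 0.05). The ratio of PFKFB3 to PFKFB4 counts within a library was 0.686 ± 0.0233 (controls) and 1.28 ± 0.0469 (GCNT1, SD, n = 3 each). PFKFB3 lies on the short arm of chromosome 10, and the 50 nearest genes that were analysed stood at a median log2 fold change of 0.76, above that of PFKFB3 itself. With the 100 nearest genes that median was 0.42, close to the 0.39 of PFKFB3. The part of that stretch in the rise of PFKFB3 was not tested.

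The secreted factors of the list split, with a large fall in ANGPTL4 and no detected change in the others. ANGPTL4, an inhibitor of lipoprotein lipase, lies on chromosome 19 from 8364155 to 8374370 and had 409, 372 and 394 reads in the controls against 92, 125 and 107 with GCNT1 overexpression. Its level was 31.9 ± 1.80 CPM in controls and 8.21 ± 0.791 CPM with overexpression (SD, n = 3 each), 74.2% lower (edgeR adjusted p = 2.04e-09, log2 fold change -1.96, SE 0.09). VEGFA, the main growth factor of blood vessels, had 726, 780 and 791 reads in the controls against 722, 830 and 955 with GCNT1 overexpression. The VEGFA groups overlapped at 62.4 ± 4.61 and 63.5 ± 3.76 CPM (SD, n = 3 each), with a log2 fold change of 0.03 (edgeR adjusted p = 0.763, SE 0.07).

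ADM encodes the vasodilator adrenomedullin, and its groups overlapped as well. It had 305, 310 and 301 reads in the controls against 287, 291 and 359 with GCNT1 overexpression (edgeR adjusted p = 0.538, log2 fold change -0.06, SE 0.08). STC2, a secreted glycoprotein, had a log2 fold change of -0.10 (edgeR adjusted p = 0.113, SE 0.05), although its scaled groups did not overlap.

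Members that act on collagen and protein folding changed little, apart from P4HA2. P4HA1 and P4HA2 encode the catalytic subunits of collagen prolyl 4-hydroxylase. P4HA2 was 31.9% lower (edgeR adjusted p = 2.07e-06, log2 fold change -0.55, SE 0.05), just under the fold change threshold, and without GCNT1 overexpressing library 2 it was called at -0.58. P4HA1 had a log2 fold change of -0.11 (edgeR adjusted p = 0.0700, SE 0.05). The ratio of P4HA2 to P4HA1 counts was 0.201 ± 0.00173 (controls) and 0.148 ± 0.00859 (GCNT1, SD, n = 3 each), without overlap. ERO1A, the oxidase that renews disulphide bonds in the endoplasmic reticulum, was 10.5% lower (edgeR adjusted p = 0.0116, log2 fold change -0.16). That p rose above the threshold without control library 1 (0.0549), control library 2 (0.0657) or GCNT1 overexpressing library 3 (0.0516) and with library size alone (0.0880), each an adjusted p of edgeR's test. LOX, which cross-links collagen, had overlapping groups (edgeR adjusted p = 0.339, log2 fold change 0.13, SE 0.11).

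In lipid handling, HILPDA and INSIG2 were lower and VLDLR was marginal. HILPDA, which blocks lipolysis at lipid droplets, was 29.6% lower (edgeR adjusted p = 6.87e-05, log2 fold change -0.51). INSIG2, which retains the sterol sensor in the endoplasmic reticulum, was 27.3% lower (edgeR adjusted p = 8.83e-05, log2 fold change -0.46). VLDLR, a lipoprotein receptor, was 19.5% higher (edgeR adjusted p = 0.0488, log2 fold change 0.26), but its groups overlapped. Over the alternatives that adjusted p ran from 0.0104 to 0.190, and it passed the threshold neither with limma-voom nor with DESeq2, nor without control library 2 (0.106), control library 3 (0.159), GCNT1 overexpressing library 2 (0.112) or GCNT1 overexpressing library 3 (0.190) in edgeR's test.

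The histone demethylases and the related hydroxylase JMJD6 need oxygen for catalysis, and some are themselves HIF targets. KDM4B, which removes methyl groups from lysine 9 of histone H3, was 30.0% lower (edgeR adjusted p = 5.26e-06, log2 fold change -0.51). KDM3A, with a related activity, was 19.9% lower (edgeR adjusted p = 0.000427, log2 fold change -0.32). KDM4C and JMJD6 had log2 fold changes of -0.01 and 0.03 (adjusted p = 0.935 and 0.671 in edgeR's test) and overlapping groups.

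Of the 6 members that act in transcription and growth control, 3 were called lower, against 11.1% of all genes, and DDIT4 lost its call in glmTreat. NDRG1, a stress-induced growth suppressor of prostate and other epithelia, lies on chromosome 8 from 133237175 to 133297252. It had 10859, 11322 and 10862 reads in the controls against 5193, 6694 and 6934 with GCNT1 overexpression. The level of NDRG1 was 897 ± 29.9 CPM in controls and 476 ± 23.6 CPM with overexpression (SD, n = 3 each), 46.9% lower (edgeR adjusted p = 4.61e-09, log2 fold change -0.91, SE 0.05). BHLHE40, a repressor in the circadian and hypoxia responses, lies on chromosome 3 from 4979437 to 4985323 and had 4654, 4889 and 4805 reads in the controls against 2495, 2849 and 3286 with GCNT1 overexpression. It was 43.9% lower (edgeR adjusted p = 3.85e-08, log2 fold change -0.83, SE 0.05), and an antisense gene overlaps it.

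DDIT4, a stress-induced inhibitor of mTORC1, lies on chromosome 10 from 72273924 to 72276036. It had 303, 324 and 259 reads in the controls against 146, 176 and 224 with GCNT1 overexpression (edgeR adjusted p = 2.54e-05, log2 fold change -0.80, SE 0.10). MXI1, an antagonist of MYC, was 22.5% lower (edgeR adjusted p = 0.00192, log2 fold change -0.37). WSB1, part of a ubiquitin ligase, had a log2 fold change of -0.12 (edgeR adjusted p = 0.0815). RORA, a nuclear receptor, was near the lower limit of the table at 1.11 ± 0.229 and 1.14 ± 0.0877 CPM (SD, n = 3 each), so that only a large change could have been detected.

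The promoter windows of BHLHE40 (GRCh38.p14, chr3:4979187-4979436, plus strand) and KDM4C (GRCh38.p14, chr9:6757723-6757972, plus strand) are set side by side because each held 4 matches to ACGTG while the genes had log2 fold changes of -0.83 and -0.01. A CACGTG reads as ACGTG on each strand and counts as 2 matches. The RefSeq start used for KDM4C lies 37.1 kb inside the gene's span.
BHLHE40: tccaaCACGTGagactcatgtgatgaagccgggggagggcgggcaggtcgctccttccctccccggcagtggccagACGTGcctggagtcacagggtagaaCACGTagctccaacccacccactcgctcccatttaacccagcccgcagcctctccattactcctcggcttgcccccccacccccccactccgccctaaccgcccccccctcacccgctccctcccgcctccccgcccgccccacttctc
KDM4C: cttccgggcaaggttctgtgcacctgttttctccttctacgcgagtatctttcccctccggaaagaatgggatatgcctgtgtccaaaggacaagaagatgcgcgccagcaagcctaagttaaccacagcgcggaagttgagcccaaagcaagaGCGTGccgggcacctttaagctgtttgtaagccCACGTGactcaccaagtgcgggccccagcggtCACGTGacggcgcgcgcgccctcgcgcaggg

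The remaining targets include PPFIA4, a liprin scaffold protein, on chromosome 1 from 203026491 to 203078736. It had 160, 156 and 142 reads in the controls against 83, 120 and 121 with GCNT1 overexpression (edgeR adjusted p = 0.000352, log2 fold change -0.60, SE 0.11). PPFIA4 was the called member closest to the fold change threshold and fell short of it without control library 1 (-0.57), without GCNT1 overexpressing library 1 (-0.52) and with library size alone (-0.54), and its call was lost in glmTreat. ANKRD37, an ankyrin repeat protein, was 24.3% lower (edgeR adjusted p = 0.0152, log2 fold change -0.40). The adjusted p of ANKRD37 was 0.0803 with DESeq2, and in edgeR's test it was 0.0557 without control library 2 and 0.0750 without GCNT1 overexpressing library 3. ANKZF1, which acts in the quality control of stalled ribosomes, had overlapping groups (edgeR adjusted p = 0.837, log2 fold change 0.02).

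Levels of different members were compared per kb of the GENCODE canonical transcript. In controls NDRG1 was the highest member at 296.5 CPM per kb, ahead of HIF1A at 249, BNIP3 at 197, P4HA1 at 165 and SLC16A3 at 157 CPM per kb. With overexpression HIF1A was highest at 193, NDRG1 had 157 and P4HA1 had 153 CPM per kb, and no difference between genes was tested. The lowest in controls were RORA at 0.102 and VLDLR at 1.42 CPM per kb, with CA9 next above them. Called members stood throughout this range, from NDRG1 to CA9, so that the falls were not confined to weakly or strongly expressed members. The canonical transcript of PDK1 is 14.1 kb long, and its level per kb depends on that choice of transcript.

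**Figure D3:**
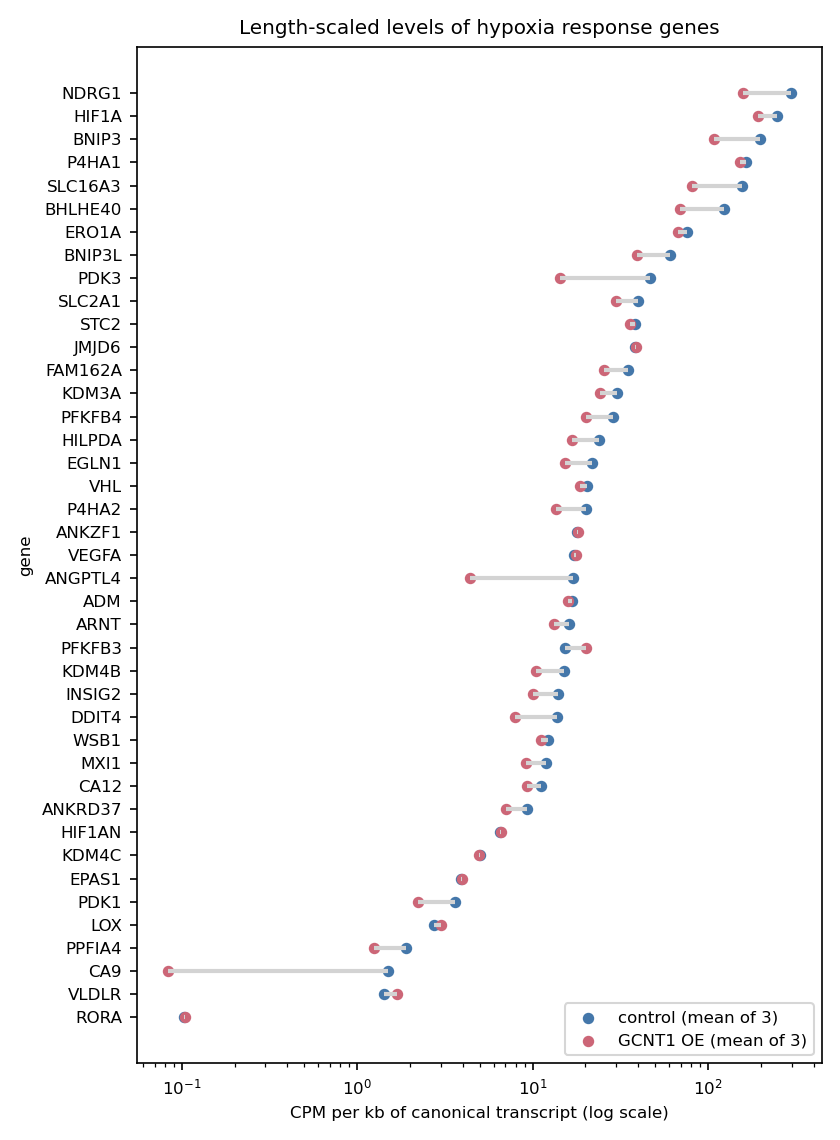
Mean level of 41 hypoxia response genes (rows, ordered by the control level) as CPM per kb of canonical transcript on a log axis, with the control mean in blue and the GCNT1 OE mean in red (3 libraries each). The grey lines joining the means are longest for CA9, ANGPTL4 and PDK3, and run to the left in most rows.

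Stretches of neighbouring genes moved together in these cells, so each member was set beside the median log2 fold change of its 50 nearest analysed genes. Over the 41 members that local median ran from -0.46 to 0.76 and had a median of -0.0036. The 11 called members lay on 9 chromosomes, and all 11 were still at least 0.58 lower on the log2 scale relative to the local median. Of the 1396 genes called lower over the whole table that had a position, 1016 (72.8%) were so. No test was run against that median. For SLC16A3 and BHLHE40 the neighbours were lower too, at -0.33 and -0.21 (-0.21 and -0.11 with 100 neighbours), and for DDIT4 they were higher at 0.26.

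**Figure D4:**
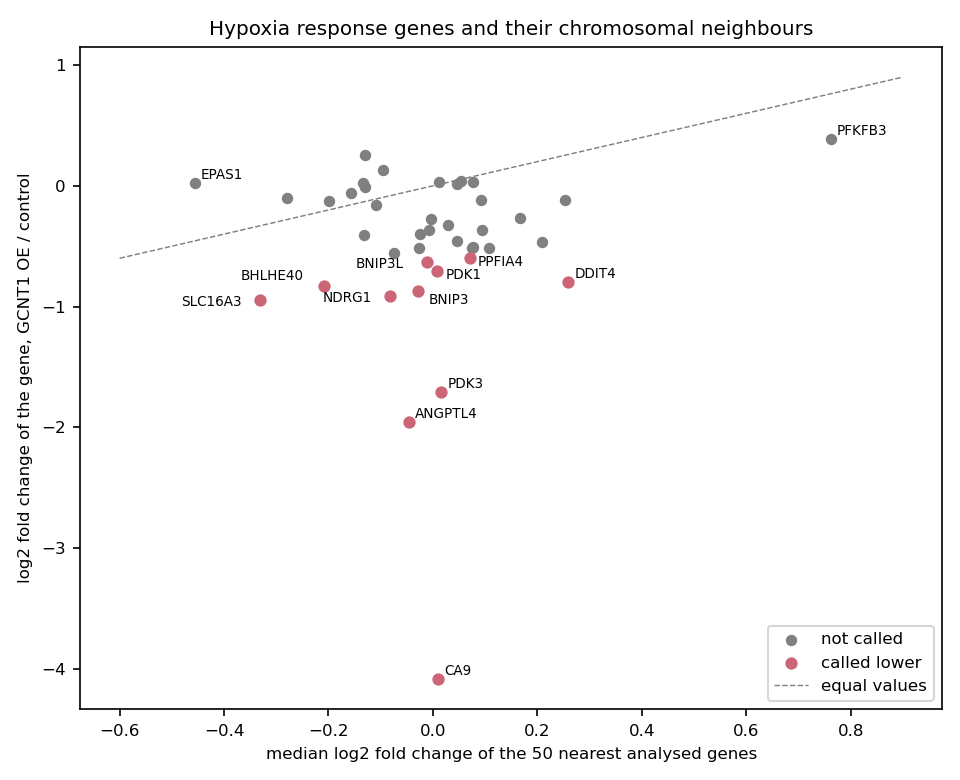
Log2 fold change of each of 41 hypoxia response genes (vertical axis) against the median log2 fold change of its 50 nearest analysed genes (horizontal axis), with the 11 called genes in red and a dashed line where both values are equal. All called genes lie well below the dashed line, and PFKFB3 stands at the far right at 0.76, under the line.

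A promoter sequence of 250 bases was found in RefSeq (GRCh38.p14) for 34 of the 41 members and for 10236 of the genes tested. ACGTG was present on either strand in 17 of 34 members, against 23.4% of the promoters of all tested genes. GCGTG was present in 18 members (52.9%) and in 45.7% of the promoters of tested genes. Of the 9 called members with a sequence, 7 held ACGTG, and the windows of SLC16A3 and PDK1 held neither motif. The table has 1 start per gene, and for 6 members that start lies inside the gene's span, among them SLC16A3 (10.5 kb inside) and KDM4C (37.1 kb inside), so the windows of these 6 genes do not cover the outermost start. Of the 25 members that were not called, 10 held ACGTG. The other motif went the other way, with GCGTG in 4 of the 9 called members (44.4%) and 14 of the 25 not called (56.0%). Either motif was present in 7 of the 9 called members (77.8%) and 19 of the 25 not called (76.0%), so that share hardly differed. These are counts of letters in a short window, and the members include genes known as HIF targets through such elements.

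Other genes of the pathway were taken from 3 lists written from general knowledge, with no gene shared with the members. Earlier results of these data were known when the lists were chosen, so their shares are descriptive. In the glycolysis list 12 of 16 genes had an adjusted p under 0.05 and were lower, against 29.3% of all genes, and 1 was higher, against 28.3%. With both thresholds 4 were lower, against 11.1% of all genes, and 0 were higher, and the median log2 fold change was -0.39. The called genes were ALDOC, ENO1, LDHA and PGK1. ALDOC, the brain-type aldolase, had 120 ± 6.17 CPM in controls and 50.3 ± 2.89 CPM with GCNT1 overexpression (SD, n = 3 each), which is a log2 fold change of -1.25 (edgeR adjusted p = 2.97e-09). LDHA, which makes lactate, had 49162, 49166 and 46769 reads in the controls against 29206, 34607 and 34686 with GCNT1 overexpression, a log2 fold change of -0.65 (edgeR adjusted p = 1.00e-08). ENO1, an enolase, had a log2 fold change of -0.67. PGK1, which makes ATP in glycolysis, was at -0.59 and fell short of the threshold without control library 1 (-0.56) and with library size alone (-0.53). LDHA, ENO1 and PGK1 have 6, 4 and 2 pseudogenes named after them, and part of their counts is uncertain.

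Among 17 partners and turnover factors of HIF, 9 were lower and 6 were higher by the adjusted p (29.3% and 28.3% of all genes). In this list 2 genes were called, both lower, and that share of 11.8% was close to the 11.1% of all genes. ARNT2, a relative of ARNT, had 116, 111 and 121 reads in the controls against 15, 19 and 17 with GCNT1 overexpression (edgeR adjusted p = 9.68e-09, log2 fold change -2.86, SE 0.16). HSP90AA1, an inducible chaperone that stabilizes HIF alpha among many clients, had a log2 fold change of -0.60, and was at -0.58 (not past the threshold) without control library 1 and at -0.54 with library size alone. The median of the list was -0.16.

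The list of 32 further hypoxia targets had 19 lower (59.4%, against 29.3% of all genes) and 6 higher (18.8%, against 28.3%) by the adjusted p, and a median log2 fold change of -0.33. With both thresholds 6 were lower (18.8%, against 11.1% of all genes) and 3 were higher (9.38%, close to the 8.28% of all genes). The largest falls were in CXCR4, IGFBP3 and NT5E. CXCR4, a chemokine receptor, had 54, 51 and 55 reads in the controls against 1, 3 and 3 with GCNT1 overexpression, 24.4-fold lower by summed counts (95% exact interval 11.6 to 61.8, counting error only). Like CA9, it has its row through the controls alone. IGFBP3, which binds insulin-like growth factors, and NT5E, which makes adenosine outside the cell, had log2 fold changes of -1.41 and -0.99. The called rises included FLT1 and TGFA. FLT1, a receptor of VEGFA, had 31, 36 and 30 reads in the controls against 1382, 1723 and 1679 with GCNT1 overexpression (edgeR adjusted p = 6.76e-14, log2 fold change 5.52, SE 0.09). TGFA, an EGF receptor ligand, went from 4.63 ± 0.636 CPM up to 8.75 ± 0.425 CPM (SD, n = 3 each).

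**Figure D5:**
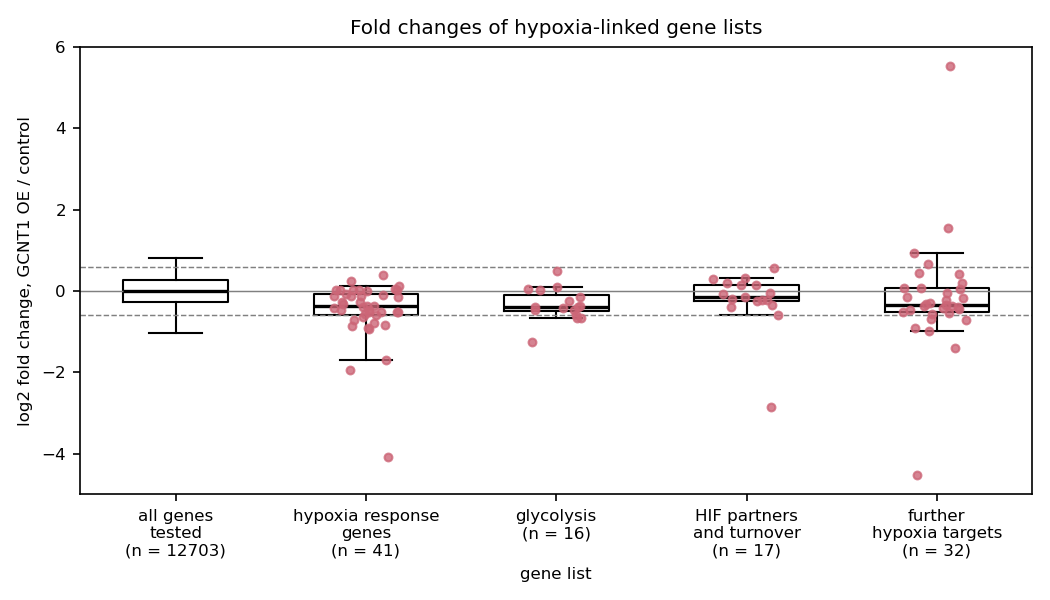
Log2 fold change (GCNT1 OE over control) of all 12703 genes tested, the 41 hypoxia response genes and the lists of glycolysis (16), HIF partners and turnover (17) and further hypoxia targets (32); boxes give the quartiles and median, whiskers the 5th to 95th percentiles, red points single genes, and dashed lines the fold change threshold of 0.58. The medians are 0.00095 for all genes, -0.37 for the hypoxia response genes, -0.39, -0.16 and -0.33 for the other lists, and FLT1 at 5.52 is the highest point.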

How the data were processed

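RNA from 3 control and 3 GCNT1 overexpressing PC3 lines was sequenced by the authors from TruSeq Stranded mRNA libraries as single reads of 75 bp. In Galaxy 22.01 the authors used Cutadapt for trimming, HISAT2 for alignment to hg38 and featureCounts for counting, and they deposited raw read counts by Entrez gene. The annotation and the strand setting are not given in the sources used here. The lowest CPM of any gene among its top 3 libraries was 1.01, so low genes had been filtered out. The floor of 3 counts was 0.217 to 0.263 CPM and covers counting error only.

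Tests used edgeR 4.0.16 under R 4.3.3, by a quasi-likelihood fit after TMM scaling and filterByExpr, which removed no gene, and p values were adjusted over 12703 genes (Benjamini-Hochberg), with limma 3.58.1 and DESeq2 1.42.0 as alternatives, and the scripts were tested on simulated data. All members were eligible to be named. Per-library counts are given for called members and key pathway genes, and of the other lists the 3 largest rises and falls among called genes without overlap. Part of what this rule gives is not reported here. The members and lists were chosen with earlier results of these data known. Libraries of a group differed by more than sampling noise. Same-numbered libraries deviated from their group means with correlations of -0.27, -0.0024 and -0.11, so the numbers did not pair them. Symbols and positions came from RefSeq GRCh38.p14, and overlaps and transcript lengths from GENCODE 44.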

Additional observations from a re-analysis of the deposited data

How the results depend on the processing

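The count of members called lower was 11 with limma-voom, DESeq2, RLE factors, no filter and the replicate block, and 10 with at least 10 counts in every library, which leaves out CA9 because of its own fall. edgeR's glmTreat, which tests for changes beyond 0.58 on the log2 scale, called 7 members lower (without BNIP3L, DDIT4, PDK1 and PPFIA4), 1 glycolysis gene and 1 HIF partner, and 865 lower and 527 higher genes over all. Members higher by the adjusted p numbered 2, and 1 with limma-voom, DESeq2, the filter at 10 counts or the replicate block, where VLDLR was lost (adjusted p = 0.0913 in edgeR's test). With library size alone the median of all genes moved to 0.06, the members' median was -0.31, and 1 HIF partner was called lower and 1 higher (P4HTM). That scaling called 1230 genes lower and 1283 higher, where TMM called 1405 and 1052. Leaving out 1 library at a time gave 10 to 12 members called lower, 0 called higher, 24 to 26 lower and 1 to 2 higher by the adjusted p, and a members' median from -0.42 (without GCNT1 overexpressing library 2) to -0.31 (without GCNT1 overexpressing library 1). Over the same fits the calls were 1344 to 1427 lower and 1037 to 1094 higher over all genes, 3 to 4 lower in glycolysis, 1 to 2 lower and 0 to 1 higher among HIF partners, and 6 to 8 lower and 3 to 4 higher among further targets. No fold change of a called member changed sign under any alternative. glmTreat aside, 527 alternative values of single members stayed on their side of the call, and 5 did not, which belonged to BNIP3L, P4HA2 and PPFIA4. The replicate block, whose numbers did not pair the libraries, left the same 11 members called. With 100 neighbours the median of the members' local medians was 0.0090. Depth limits CA9 and RORA most.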

Other observations

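Related enzymes outside the list of members also moved apart, and the following pairs were chosen after their values were seen. PLOD1 and PLOD2 encode lysyl hydroxylases of collagen. PLOD1 was called lower (edgeR adjusted p = 6.86e-08, log2 fold change -0.72), while PLOD2 was higher by the adjusted p alone (edgeR adjusted p = 1.29e-05, log2 fold change 0.42). The ratio of PLOD2 to PLOD1 counts within a library was 0.295 ± 0.0199 (controls) and 0.651 ± 0.0419 (GCNT1, SD, n = 3 each). PFKL and PFKM, the liver and muscle forms of phosphofructokinase, had log2 fold changes of -0.37 and 0.49 (adjusted p = 4.16e-05 and 3.12e-06 in edgeR's test), and the ratio of PFKM to PFKL counts was 0.339 ± 0.0138 in controls and 0.616 ± 0.0163 with overexpression (SD, n = 3 each). Neither pair overlapped between the groups, and the ratios do not depend on the scaling.

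P4HTM, a transmembrane prolyl hydroxylase able to act on HIF alpha, had 319, 284 and 342 reads in the controls against 472, 513 and 516 with GCNT1 overexpression (edgeR adjusted p = 9.74e-05, log2 fold change 0.57), just under the fold change threshold. P4HTM passed that threshold with library size alone (0.63) and without control library 3 (0.66), GCNT1 overexpressing library 2 (0.59) or GCNT1 overexpressing library 3 (0.60).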
